A study of Sus scrofa with 48 samples.

Results

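Collagens, laminins, integrins and the proteases and inhibitors that act on the extracellular matrix were followed in the fat and liver of pigs that had been fasted or fed. The genes were chosen by name: those whose probe annotation gives 1 gene symbol that starts with COL and a digit, LAMA, LAMB, LAMC, ITGA, ITGB, MMP and a digit, TIMP or ADAMTS. This gave 46 of the 6765 genes with 1 symbol, with 81 probe sets between them, of which the one with the highest mean log2 signal stands for each gene. They are 7 fibrillar collagens, 2 basement membrane collagens, 6 other collagens, 3 laminin chains, 7 integrins of many cell types, 5 integrins of leukocytes and platelets, 8 matrix metalloproteinases (MMPs), 4 tissue inhibitors of metalloproteinases (TIMPs) and 3 ADAMTS proteases. The remaining member, ITGB1BP2, shares the ITGB prefix and is not an integrin subunit but a muscle protein that binds one. All 46 matched a gene of the same symbol in the RefSeq gene table of the pig.

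RNA of 24 Yorkshire gilts, 6 months old and bred for feed efficiency through low residual feed intake, was measured on 48 arrays, 1 for the fat and 1 for the liver of each gilt. In each tissue the groups were N298 gilts fasted for 3 days, N298 gilts fed ad libitum, D298 gilts fasted for 3 days and D298 gilts fed ad libitum, with 6 gilts each. D298 and N298 are the wildtype and the variant form of MC4R, a melanocortin receptor of the brain that acts on appetite, and each gilt was homozygous for 1 of them. The labels do not name the fat depot, and every gilt came from the same selected line, so no group stands for unselected pigs.

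The extracellular matrix is the protein scaffold around cells. In fat, fibrillar collagens form the fibres between adipocytes, and collagen IV, collagen XV and laminins lie in or beside the basement membrane that wraps each adipocyte and each capillary. Integrins are paired receptors that tie cells to this scaffold, MMPs and ADAMTS proteases cut it, and TIMPs block MMPs.

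The deposited signals had nearly the same trimmed mean on all arrays, and the median signal of an array was 159 to 192 in fat and 122 to 149 in liver. The median correlation of an array with its group was 0.922 to 0.935 in fat and 0.915 to 0.927 in liver. All 9 adipocyte markers measured were higher in fat than in liver, and all 11 hepatocyte markers were lower. COL5A1, COL3A1, TIMP1 and TIMP2, which mark the gene set, each had a mean above the median probe set in both tissues. Yet 4 fat arrays (D298 fasted 5, D298 fed 4, N298 fed 3 and N298 fed 6) had a mean log2 signal of 9.41 to 9.73 over the hepatocyte markers, against 5.48 to 6.25 in the other 20. Skeletal muscle markers also varied widely in fat, with list means of 4.66 to 13.24 in fasted and 4.19 to 12.55 in fed gilts. The log2 ratio of the 3′ to the 5′ signal of the GAPDH control, a measure of RNA quality, was 0.42 to 1.27 with a median of 0.70 in fasted fat, and 0.30 to 0.81 with a median of 0.45 in fed fat. How precise a value is depends on these 12 arrays per feeding state and tissue.

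The first comparison asked what 3 days without feed did to these genes in fat. COL5A1, COL5A2, COL5A3, COL1A2 and COL15A1, chains of collagens V, I and XV, were lower in fasted fat, down to 0.370 of the fed level for COL5A3. The membrane-bound protease MMP14, its substrate MMP2 and the inhibitor TIMP2 were higher. Of the 46 genes 6 rose and 7 fell at an adjusted p under 0.05 (limma, Benjamini-Hochberg over 23999 probe sets). That is 28.3% of them, beside 34.2% of all 6765 genes and 25.2% of all probe sets; over all genes 15.3% rose and 18.9% fell. The median log2 difference, fasted minus fed, was 0.02 over the 46 and 0.01 over all genes, and the share of the 46 called lay between these 2 background shares. Of the 13 genes called, 12 had a mean above the median probe set of fat, as had 24 of all 46.

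All 7 fibrillar collagens had a log2 difference below 0, and 4 of the 7 passed. COL5A3, a chain of the collagen V that limits fibril width, had signals of 868, 1839.9 and 3289 (lowest, median and highest of 12) in fasted gilts, against 3742, 4987 and 6716 in fed gilts. The 2 ranges did not overlap: every fasted gilt lay below every fed gilt. The log2 difference of COL5A3 was -1.44 ± 0.17 (SE, adjusted p = 2.61e-06), which is 0.370 of the fed level.

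COL5A1, the chain found in nearly all collagen V, had 1101, 1797 and 3094 in fasted gilts, against 2908, 4245 and 5429 in fed gilts. All 12 fasted gilts lay below the fed median, and 11 of them below every fed gilt (-1.23 ± 0.13, adjusted p = 5.97e-07). The third collagen V chain, COL5A2, had 274, 402 and 576 in fasted gilts, against 305, 654 and 961 in fed gilts (-0.70 ± 0.14, adjusted p = 0.000521). It too had no fasted gilt above the fed median, although its ranges overlapped more. COL1A2, a chain of collagen I, the main collagen of fibres, had 890.1, 1957 and 4066 in fasted gilts, against 1668, 3982 and 8375 in fed gilts. Only 1 fasted gilt exceeded the fed median, and both groups spread widely (-1.02 ± 0.20, adjusted p = 0.000564).

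Not all fibrillar collagens passed. COL3A1, a main collagen of soft tissue and here one of the genes given as markers of the set, had 78.2, 299 and 453 in fasted gilts, against 165, 265 and 677 in fed gilts. Its groups overlapped widely (-0.07 ± 0.23, adjusted p = 0.883). No second probe set read COL3A1, and its fed median was low beside the 3982 of COL1A2. How well its probe set reads the gene was not tested. The cartilage collagens COL2A1 (-0.50 ± 0.21, adjusted p = 0.0888) and COL11A1 (-0.35 ± 0.44, adjusted p = 0.630) are the other 2, and the mean of each lay below the median probe set of fat.

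Of the basement membrane collagens, COL15A1 fell and COL4A2 did not pass. COL15A1, which lies where the basement membrane meets the fibres, had 3497, 3991 and 5562 in fasted gilts, against 6997, 8705 and 9655 in fed gilts. The gap between the ranges was clean in both genotypes, and the adjusted p was the lowest of the 46 genes (-1.04 ± 0.07, adjusted p = 3.23e-09). COL4A2, a chain of the collagen IV network, had a median of 7947 in fasted and 8656 in fed gilts and lay among the brightest probe sets of fat, with a difference of -0.10 ± 0.08 (adjusted p = 0.426).

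COL15A1 and COL5A3 were the only members with ranges that did not overlap between 12 fasted and 12 fed gilts, 4.35% of the 46, beside 3.15% of all genes. Among the other collagens COL6A2 fell (-0.59 ± 0.14, adjusted p = 0.00338). This chain of the beaded collagen VI had 589, 1263 and 2204 in fasted gilts, against 1224, 1639.9 and 3186 in fed gilts. Its partner COL6A3 had a median of 11030.1 in fasted and 11720.0 in fed gilts (-0.06 ± 0.09, adjusted p = 0.702). COL10A1 (-0.41 ± 0.41) and COL17A1 (-0.20 ± 0.28) had the largest differences of those that did not pass, and COL8A1 had -0.02 ± 0.31 and COL7A1 0.11 ± 0.31.

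**Figure D1:**
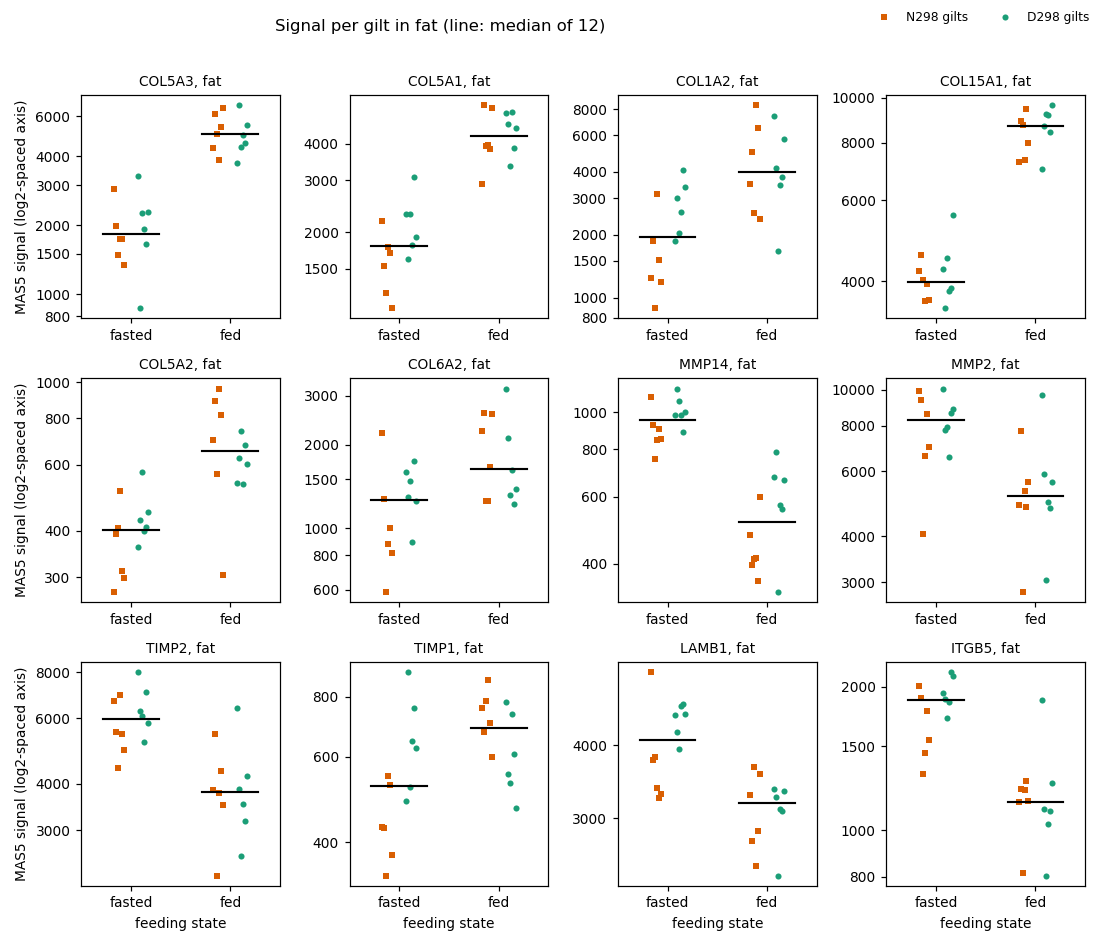
Signal of each gilt in fat for 12 of the 13 genes that passed in fasted against fed fat, on a log2-spaced axis of MAS5 signal. Squares are N298 gilts and circles D298 gilts, and the line is the median of 12. Fasted and fed gilts separate completely for COL5A3 and COL15A1 and overlap in the other panels.

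The genes that rose were 2 MMPs, 1 TIMP, 1 laminin chain and 2 integrins. MMP14, which sits in the cell membrane, cuts collagen I and activates MMP2, had 756, 955 and 1156 in fasted gilts, against 337, 516 and 787 in fed gilts. Of the 12 fasted gilts 11 exceeded every fed gilt (0.92 ± 0.10, adjusted p = 5.62e-07, a 1.89-fold difference). MMP2, the gelatinase that MMP14 activates, had 4052, 8272 and 10086 in fasted gilts, against 2822, 5141 and 9661 in fed gilts. Its groups overlapped, with 11 of 12 fasted gilts above the fed median (0.59 ± 0.11, adjusted p = 0.000454). The other 6 MMPs did not pass: MMP7 (0.91 ± 0.39, adjusted p = 0.0987) and MMP20 (0.37 ± 0.59) had the largest differences, MMP1, MMP9, MMP13 and MMP3 ranged from -0.34 to 0.24, and all 6 had means below the median probe set of fat.

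The inhibitors moved in both directions. TIMP2, which blocks MMPs and also carries pro-MMP2 to MMP14 at the cell surface, had 4411, 5973 and 7993 in fasted gilts, against 2262, 3809.9 and 6411 in fed gilts. Every fasted gilt lay above the fed median (0.66 ± 0.10, adjusted p = 6.24e-05). TIMP1, a secreted inhibitor of many MMPs, had 341, 522 and 898 in fasted gilts, against 469.8, 689 and 867 in fed gilts. It fell by the smallest amount of the 13 genes (-0.33 ± 0.10, adjusted p = 0.0152), its ranges overlapped widely, and the call was lost with the GAPDH ratio as a covariate (adjusted p = 0.238), without the 4 arrays with hepatocyte transcripts (0.0818), without the 2 fat arrays with the highest control ratios (0.0525) and without replicates 1, 3 or 4 (0.0657, 0.0845 and 0.0578). TIMP4 (-0.37 ± 0.21) did not pass with all arrays but did without the 4 arrays with hepatocyte transcripts (-0.71, adjusted p = 0.0132). TIMP3 (0.20 ± 0.24) did not pass, nor did ADAMTS1 (-0.19 ± 0.13), a protease that cuts proteoglycans, ADAMTS20 (-0.94 ± 0.39, adjusted p = 0.0891) or ADAMTS6 (-0.08 ± 0.15).

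Among laminins LAMB1, a beta chain, rose (0.41 ± 0.08, adjusted p = 0.000621). It had 3243, 4082 and 5328 in fasted gilts, against 2394, 3180.3 and 3665 in fed gilts, and 9 of 12 fasted gilts exceeded every fed gilt. LAMB2, the other beta chain measured, had 0.27 ± 0.11 (adjusted p = 0.0875), and LAMC1, the gamma chain shared by most laminins, had -0.03 ± 0.08 (adjusted p = 0.834). COL4A2 and LAMC1, both among the brightest 2% of probe sets in fat, thus had differences of -0.10 and -0.03.

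Of the 7 integrins of many cell types 2 rose. ITGB5, which pairs with ITGAV to bind vitronectin, had 1313, 1872 and 2145 in fasted gilts, against 804, 1149 and 1879 in fed gilts. All 12 fasted gilts lay above the fed median (0.65 ± 0.08, adjusted p = 3.0e-06). ITGA8, which pairs with ITGB1 in mesenchymal cells, had a lower signal, 28.3, 77.1 and 149 in fasted gilts, against 23.2, 47.7 and 78.2 in fed gilts. It passed narrowly (0.64 ± 0.23, adjusted p = 0.0470), was not above the median probe set of fat and lost its call in 14 of the other fits, with an adjusted p of up to 0.315. ITGA6 (0.27 ± 0.45) and ITGAV (0.14 ± 0.10) were the largest differences among those that did not pass. ITGB1, the beta chain shared by most matrix-binding integrins, had 0.07 ± 0.05, ITGA2 0.06 ± 0.68 and ITGA5 -0.09 ± 0.09.

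None of the 5 integrins of leukocytes and platelets passed in fat. ITGAM (0.67 ± 0.42, adjusted p = 0.283), a chain of the complement receptor of myeloid cells, and ITGB3 (0.29 ± 0.15, adjusted p = 0.188), a platelet chain, had the largest differences. ITGB2, ITGA2B and ITGB7 had 0.14 to 0.26, and ITGB1BP2 had 0.21 ± 0.23. Of other markers, 0 of 9 macrophage and 0 of 7 lymphocyte markers passed in fat (limma), beside 34.2% of all genes. Of 2 platelet markers PPBP was higher (1.24 ± 0.36, adjusted p = 0.0152). The platelet list means were low, 4.93 to 6.27 in fasted and 4.20 to 5.84 in fed fat (log2).

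**Figure D2:**
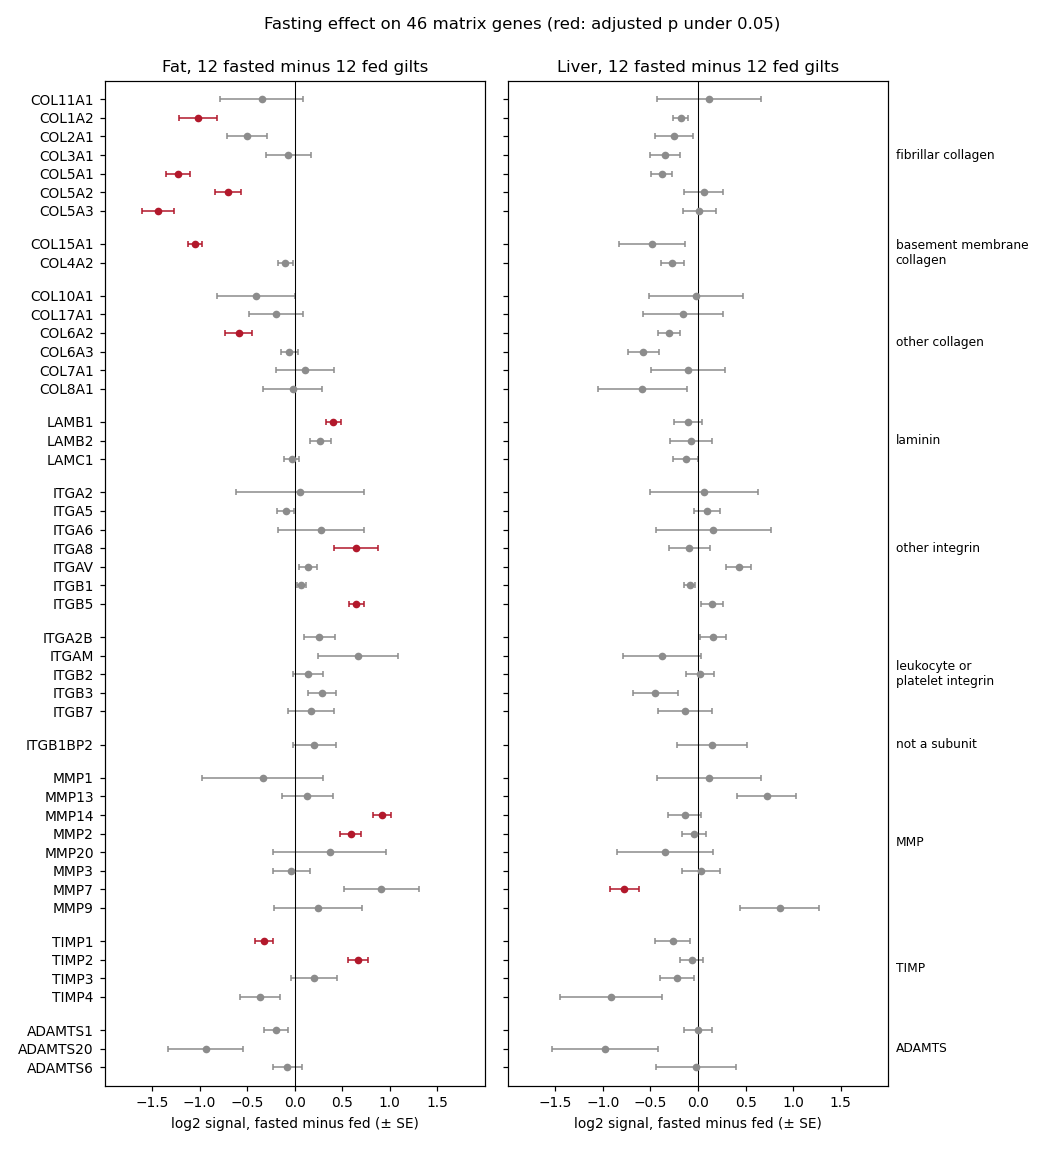
Log2 signal, fasted minus fed, with its SE for all 46 genes by role, in fat (left) and liver (right), from 12 fasted and 12 fed gilts per tissue. Red marks an adjusted p under 0.05. In fat the collagens that passed lie left of 0 and MMP14, MMP2, TIMP2, LAMB1, ITGB5 and ITGA8 right of it. In liver MMP7 is the 1 red point.

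Several genes are read by more than 1 probe set, and these did not always move alike. COL5A1 has 6 probe sets: 4 fell in fasted fat, among them the second brightest (-1.26, adjusted p = 9.3e-08), and 2 did not pass (0.12 and -0.04). Those 2 lay at the 27th and 19th percentile of signal, though the dimmest of the 6, at the 14th, was among those that fell (-1.78, adjusted p = 0.0071). The second COL5A2 probe set fell as well (-0.73, adjusted p = 0.00837). The 2 other COL5A3 probe sets, at the 31st and 11th percentile of signal, had -0.16 and -0.14 and did not pass, so the COL5A3 value rests on 1 bright probe set at the 96th percentile. The second COL1A2 probe set did not pass (-0.47, adjusted p = 0.304). For LAMB1 (0.35, adjusted p = 0.00712) and TIMP2 (0.46, adjusted p = 0.00351) the second probe set passed in the same direction, and of the 2 others of ITGA8 1 passed (0.77, adjusted p = 0.00486) and 1 did not (0.11). Probe sets of COL17A1 (-0.20 and 0.35), ITGAM (0.67 and -0.37), ITGB7 (0.17 and -0.47) and MMP3 (-0.03, 0.74, -0.68 and 0.10) differed in sign, and none of these passed. Those of COL8A1 and LAMC1 also fell on both sides of 0, within -0.12 to 0.13, and did not pass.

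Genes that make, join or bind the matrix proteins gave the surroundings of these changes. Of 29 listed genes of collagen processing 13 were measured, and in fasted fat 7 fell, 2 rose and 4 did not pass. Over all genes 18.9% fell and 15.3% rose. The 7 listed genes that fell were SERPINH1, the collagen chaperone of the endoplasmic reticulum (-0.63 ± 0.08, adjusted p = 2.93e-06), BMP1, which cuts the end from procollagen (-0.88 ± 0.12, adjusted p = 1.33e-05), the lysyl hydroxylases PLOD1 (-0.44) and PLOD3 (-0.22), the prolyl hydroxylase chain P4HA2 (-0.44), the chaperone FKBP10 (-0.63) and the cross-linking enzyme LOXL1 (-0.62). SERPINH1 had 2369.6, 2935 and 3781 in fasted gilts, against 3556, 4561 and 5742 in fed gilts. The 2 that rose were CTSK, a lysosomal protease that degrades collagen (0.50 ± 0.07, adjusted p = 1.8e-05), and PCOLCE2, which enhances procollagen cutting (0.56 ± 0.12, adjusted p = 0.00159). The median over the 13 was -0.22.

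NID2, a nidogen that links laminin to collagen IV, was the 1 of 7 listed basement membrane partners measured, and it fell in fat (-0.45 ± 0.13, adjusted p = 0.0121). Of 10 measured genes of integrin adhesion 3 rose and none fell. They were LIMS2, an adaptor of integrin complexes (0.93 ± 0.10, adjusted p = 9.74e-07), TLN1, the talin that links integrins to actin (0.36 ± 0.08, adjusted p = 0.00125), and the tetraspanin CD9 (0.45 ± 0.13, adjusted p = 0.015). Of 7 measured genes of TGF-beta signalling, a pathway known for inducing collagens, TGFBR1 rose (0.58 ± 0.06, adjusted p = 2.0e-07) and 6 did not pass, among them TGFB1 (0.27, adjusted p = 0.0895). Of 8 genes of plasmin and protease control PLAT, the tissue plasminogen activator, rose (0.82 ± 0.13, adjusted p = 4.74e-05), and BSG, a membrane protein that induces MMPs in other cells, fell (-0.36 ± 0.07, adjusted p = 0.000568). The integrin, TGF-beta and protease lists had no larger share called than all genes in fat, 34.2%.

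**Figure D3:**
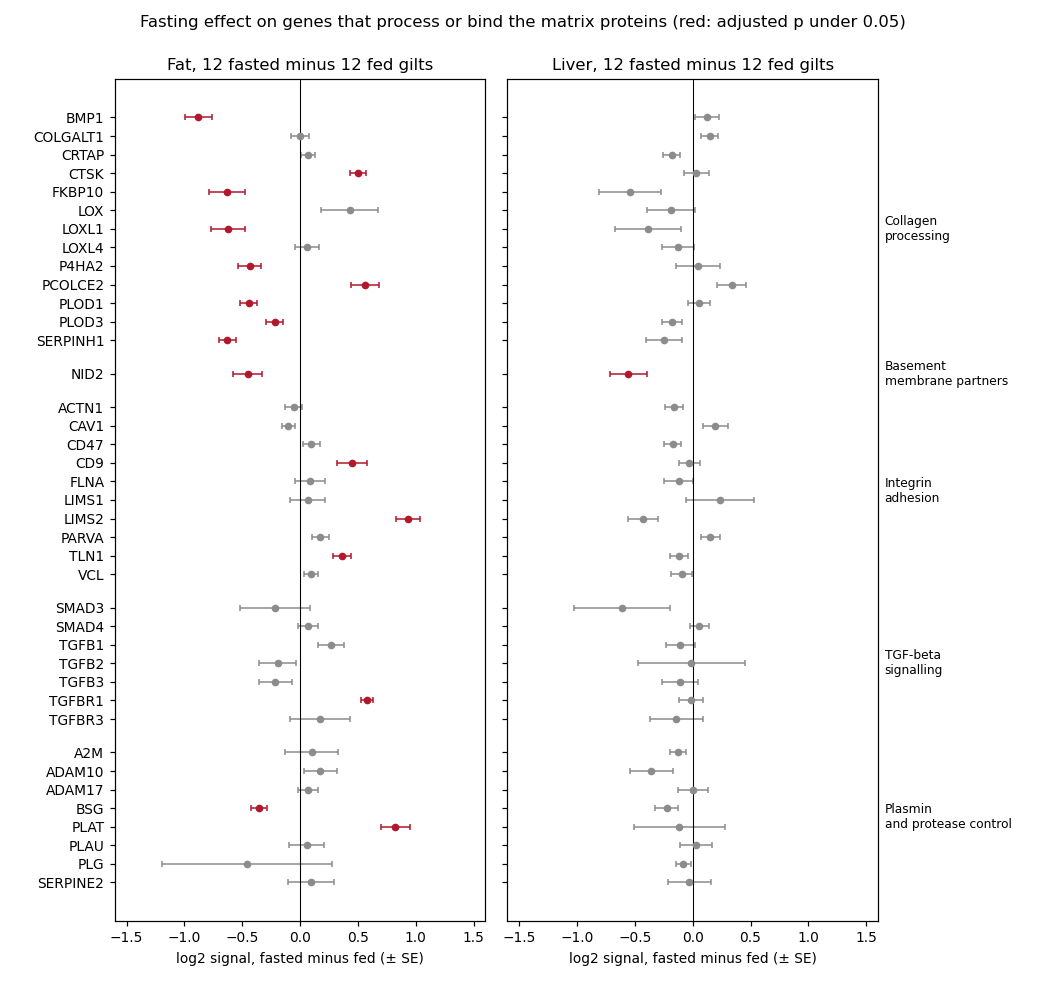
Log2 signal, fasted minus fed, with its SE for 39 measured genes that process or bind matrix proteins, in fat (left) and liver (right), from 12 fasted and 12 fed gilts per tissue. Red marks an adjusted p under 0.05. In fat 7 collagen processing genes lie left of 0 and CTSK and PCOLCE2 right of it, and in liver NID2 is the 1 red point.

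Some markers of other cells of fat were also called in fasted against fed fat, beside 34.2% of all genes (15.3% higher and 18.9% lower). Of 7 measured fibroblast markers outside the 46, LUM (-1.24), DPT (-0.81) and THY1 (-0.76) fell and none rose, and the list mean was 10.70 to 11.86 in fasted and 11.19 to 11.99 in fed fat (log2). Of 12 endothelial markers 7 rose and none fell, with list means of 9.72 to 10.42 in fasted and 9.25 to 9.87 in fed fat. Among 7 measured markers of smooth muscle and pericytes TAGLN and PDGFRB rose and RGS5 fell. Of 9 adipocyte markers CFD rose and LPL and GPD1 fell, a share close to that of all genes. In a sample of whole tissue, fewer cells of a type and less RNA per cell cannot be told apart, and the part of these markers in the changes was not tested.

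The fasting response of fat was next set out within each genotype. In N298 gilts 11 of the 46 genes passed, 4 higher and 7 lower, beside 22.3% of all genes. In D298 gilts 9 passed, 6 higher and 3 lower, beside 19.1% of all genes. COL15A1, COL5A1, COL5A3, ITGB5, MMP14, MMP2 and TIMP2 passed in both. COL15A1 was alike in size, with -1.05 ± 0.10 in N298 and -1.04 ± 0.10 in D298 gilts, and COL5A3 had -1.51 ± 0.24 in N298 and -1.36 ± 0.24 in D298 gilts.

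COL1A2, COL5A2, COL6A2 and TIMP1 passed in N298 gilts and not in D298 gilts, and LAMB1 and MMP7 passed in D298 gilts and not in N298 gilts. COL1A2 had -1.49 ± 0.28 (adjusted p = 0.000847) in N298 and -0.54 ± 0.28 (adjusted p = 0.230) in D298 gilts. TIMP1 had -0.74 ± 0.14 (adjusted p = 0.000698) in N298 and 0.09 ± 0.14 (adjusted p = 0.749) in D298 gilts, the 1 of the 13 genes with opposite signs. These are differences in calls, and the interaction, fasted minus fed in N298 less that in D298, passed for 0 of the 46 genes, beside 0.0% of all genes in fat (limma). At an unadjusted p under 0.05 there were 455 of all 6765 genes and 5 of the 46: TIMP1 (-0.83 ± 0.19), COL8A1 (-2.23 ± 0.62), COL1A2 (-0.95 ± 0.39), MMP7 (-1.72 ± 0.78) and ITGB2 (-0.69 ± 0.32). Their adjusted p was 0.805 to 0.868.

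The values behind the lowest 2 of these show how the groups lay. TIMP1 had 341, 429 and 547 (lowest, median and highest of 6) in fasted N298 gilts, 601, 731 and 867 in fed N298 gilts, 487, 637 and 898 in fasted D298 gilts and 469.8, 581 and 780.4 in fed D298 gilts. Fasted N298 gilts had the lowest median and did not overlap fed N298 gilts, while fasted and fed D298 gilts overlapped. How many of all genes separate in this way at 6 against 6 was not counted, and the TIMP1 interaction did not pass. COL8A1, a collagen of vessel walls, had 48.5, 107 and 177 in fasted N298 gilts, 114, 184 and 773 in fed N298 gilts, 83.2, 277 and 511 in fasted D298 gilts and 36.4, 131 and 359 in fed D298 gilts. All 4 groups of COL8A1 overlapped with at least 1 other, and its mean lay below the median probe set of fat.

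Genotype itself, N298 minus D298, passed for 0 of the 46 genes in fat, beside 0.0% of all genes, and the lowest adjusted p among the 46 was 0.783 (limma). At an unadjusted p under 0.05 there were 362 of all 6765 genes and 5 of the 46, namely MMP14 (-0.30 ± 0.10), MMP7 (0.96 ± 0.39), ITGB3 (-0.33 ± 0.15), MMP1 (1.37 ± 0.63) and COL5A1 (-0.27 ± 0.13). The value was below 0 for 35 of the 46, with a median of -0.13 beside 0.01 over all genes. All 46 were read on the same arrays, so these signs are not separate observations, and they were not tested. MMP14 had medians of 877 in fasted N298 and 412 in fed N298 gilts, against 994 in fasted D298 and 617 in fed D298 gilts, and was thus higher in fasted than in fed gilts of either genotype. Within fasted fat 0 of 46 passed, beside 0.0% of all genes. There 8 of the 46 had an unadjusted p under 0.05, beside 528 of all 6765 genes, and TIMP1 was the lowest of the 8 (-0.56 ± 0.14, limma, adjusted p = 0.317). Within fed fat 0 passed, beside 0.0%, with 5 unadjusted, beside 276 of all 6765 genes.

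**Figure D4:**
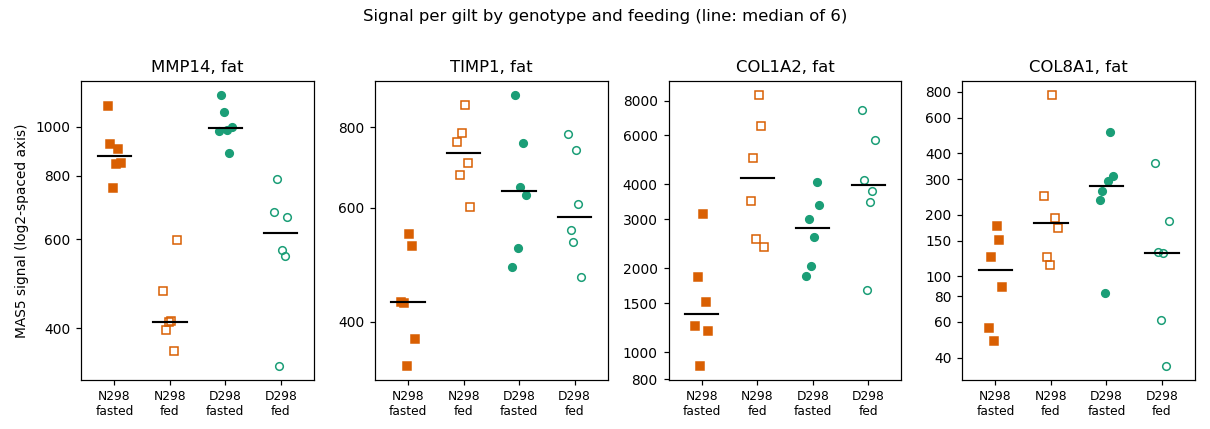
Signal of each gilt in fat for MMP14, TIMP1, COL1A2 and COL8A1 on a log2-spaced axis of MAS5 signal, in fasted and fed N298 gilts (squares) and fasted and fed D298 gilts (circles), 6 per group. Filled symbols are fasted, open ones fed, and the line is the group median. MMP14 is higher in fasted gilts of both genotypes. For TIMP1 the fasted N298 median of 429 is the lowest of the 4.

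In liver MMP7 fell with fasting, and no collagen, laminin, integrin or inhibitor passed with the probe set that stands for its gene. The call for 1 of 46 is 2.17%, beside 7.2% of all genes and 4.47% of all probe sets; over all genes 4.09% rose and 3.1% fell. That gene was MMP7, matrilysin, a small protease made by epithelia. It had 309, 445 and 972 in fasted livers, against 570.1, 769.9 and 1067 in fed livers. Of 12 fasted livers 11 lay below every fed liver (-0.77 ± 0.15, adjusted p = 0.003), and the liver of fasted N298 gilt 3, at 972, stood among the fed values. No member had fasted and fed ranges that did not overlap, 0 of 46, beside 0.843% of all genes.

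The collagens with the lowest adjusted p in liver were COL6A3 and COL5A1, and neither passed. COL6A3 had 237, 562 and 741 in fasted livers, against 467, 765 and 944 in fed livers (-0.57 ± 0.17, adjusted p = 0.0511), and COL5A1 had 207, 291 and 404 in fasted livers, against 259, 415 and 502 in fed livers (-0.38 ± 0.11, adjusted p = 0.0539). No fasted liver exceeded the fed median for either gene. COL8A1 had a like difference to COL6A3 with a wider error (-0.58 ± 0.47, adjusted p = 0.593). The second COL5A1 probe set passed in liver (-0.59, adjusted p = 0.0032). ITGAV had 0.43 ± 0.13 (adjusted p = 0.0647). At an unadjusted p under 0.05 there were 9 of 46, beside 1564 of all 6765 genes. The median over the 46 was -0.10, beside 0.00 over all genes.

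By role, all 6 other collagens, both basement membrane collagens, all 3 laminins and all 4 TIMPs had liver values below 0, and 4 of 7 fibrillar collagens did. Of the integrins of many cell types 5 of 7 lay above 0, and of the MMPs 4 of 8. Of all 46 genes 30 lay below 0 and 16 above. Signs read on the same arrays are not separate observations, and they were not tested. For LAMC1 (0.43), TIMP3 (0.19) and COL17A1 (0.01) another probe set lay above 0 without passing. COL3A1 had a median of 179 in fasted and 199 in fed livers (-0.35 ± 0.16, adjusted p = 0.263), with 7 of 12 fasted livers below every fed liver. COL4A2 had -0.27 ± 0.12 (adjusted p = 0.239), COL1A2 -0.18 ± 0.08 (adjusted p = 0.224) and COL6A2 -0.30 ± 0.12 (adjusted p = 0.170). None of these passed. Of the genes that moved in fat, COL5A3 had 0.01 ± 0.17 in liver, COL5A2 0.06 ± 0.21, MMP14 -0.14 ± 0.17, MMP2 -0.04 ± 0.12 and TIMP2 -0.07 ± 0.12, while COL15A1 had -0.48 ± 0.35 at a low signal. ADAMTS20 (-0.97 ± 0.56), TIMP4 (-0.92 ± 0.54), MMP9 (0.86 ± 0.42) and MMP13 (0.72 ± 0.31) also had wide values that did not pass, each from a probe set with a mean below the median probe set of liver.

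Within N298 livers 0 of 46 passed, beside 2.47% of all genes, and within D298 livers 0 passed, beside 2.78%. At an unadjusted p under 0.05 there were 8 in N298 and 4 in D298 livers, beside 1169 and 1099 of all 6765 genes. MMP7 had -0.81 ± 0.21 (adjusted p = 0.0635) in N298 and -0.74 ± 0.21 (adjusted p = 0.0945) in D298 livers. Genotype passed for 0 of 46 in liver, beside 0.0% of all genes. Unadjusted there was 1, COL6A2 (0.25 ± 0.12, limma, adjusted p = 0.951), beside 343 of all 6765 genes. Genotype passed for 0 within fasted livers, beside 0.0%, with 2 unadjusted, beside 440 of all genes. Within fed livers it passed for 0, beside 0.0%, with 4 unadjusted, beside 341 of all genes. The interaction passed for 0, beside 0.0%, with 5 unadjusted, beside 448 of all genes. The lowest of the 5 was TIMP2 (-0.91 ± 0.24, limma, adjusted p = 0.850). Of the genes of collagen processing 0 of 13 passed in liver (limma), beside 7.2% of all genes, and NID2 fell there too (-0.56 ± 0.16, adjusted p = 0.048).

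The difference between the fasting responses of the tissues was then tested itself, in 1 fit of the 48 arrays in which each gilt was a random block. It passed for 10 of the 46 genes, 6 with a higher and 4 with a lower value in fat than in liver, beside 24.0% of all genes, of which 8.91% were higher and 15.1% lower. The collagens COL5A3 (-1.45 ± 0.21, adjusted p = 1.34e-06), COL5A1 (-0.85 ± 0.17, adjusted p = 0.000259), COL1A2 (-0.84 ± 0.25, adjusted p = 0.0166) and COL5A2 (-0.76 ± 0.23, adjusted p = 0.0177) were the lower ones. MMP14 (1.06 ± 0.21, adjusted p = 0.000239), TIMP2 (0.73 ± 0.19, adjusted p = 0.00543), MMP2 (0.63 ± 0.20), LAMB1 (0.51 ± 0.16) and ITGB5 (0.50 ± 0.17) were higher. MMP7 also was (1.69 ± 0.42, adjusted p = 0.00323), with a fat signal near the dim end of the array, at the 19th percentile. COL15A1 did not pass (-0.56 ± 0.35, adjusted p = 0.307), and in liver its signal was low and varied from 14.7 to 185; it passed with 32 added before log2 (-0.74, adjusted p = 0.0144) and without replicate 1 (-0.93, adjusted p = 0.0464). The calls of COL1A2 and COL5A2 were lost without replicate 1 (adjusted p = 0.0831 and 0.0727) and without replicate 5 (0.0593 and 0.163), and those of LAMB1, MMP2 and ITGB5 were each lost in 2 or more fits that left out a replicate (adjusted p up to 0.162, 0.0747 and 0.145). Centring each array on its median ended the calls of the same 3 genes, LAMB1 (0.37, adjusted p = 0.113), MMP2 (0.49, adjusted p = 0.0933) and ITGB5 (0.36, adjusted p = 0.186), which are 3 of the 6 higher ones.

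Levels of the 46 genes were set between tissues last, gene by gene. In fat 36 genes differed from liver, 30 higher and 6 lower, beside 80.3% of all genes, of which 46.9% were higher and 33.4% lower in fat. Among genes above the median probe set in both tissues, MMP2 was higher in fat by 4.64 ± 0.10 on the log2 scale (24.9-fold), COL6A3 by 4.24 ± 0.10, LAMC1 by 4.11 ± 0.08 and COL4A2 by 3.97 ± 0.09. COL15A1 (6.63 ± 0.17) and COL5A3 (5.14 ± 0.11) had larger measured differences, but in liver their means lay at the 36th and 43rd percentile of probe sets. MMP7 had -4.48 ± 0.21, with a dim signal in fat. No detection calls were used here, so the sizes for these 3 genes rest on dim signals and are given without a fold or a rank. ITGB2 (-1.64 ± 0.12) and ITGA2B (-1.02 ± 0.10) were lower in fat. ITGA5 (-0.73), ITGB3 (-0.69) and MMP3 (-0.58) were the other 3 genes lower in fat, and all 9 macrophage and 7 lymphocyte markers measured were lower in fat too.

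By role, 6 of 7 fibrillar collagens, both basement membrane collagens, all 3 laminins, all 4 TIMPs and all 3 ADAMTS genes were higher in fat than in liver, COL2A1 (-0.04 ± 0.16) being the exception among the fibrillar ones. COL3A1 was 1.44-fold higher, the smallest difference of those 6, and with each array centred on its median it no longer passed (adjusted p = 0.245). ITGB1 (0.67 ± 0.03), ITGAV (0.66 ± 0.08) and ITGB5 (0.45 ± 0.08) were nearer to even, and so centred ITGB5 did not pass either (0.09, adjusted p = 0.362). Log2 array medians were 0.36 higher in fat than in liver on average, and centring takes that amount off every difference between the tissues.

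**Figure D5:**
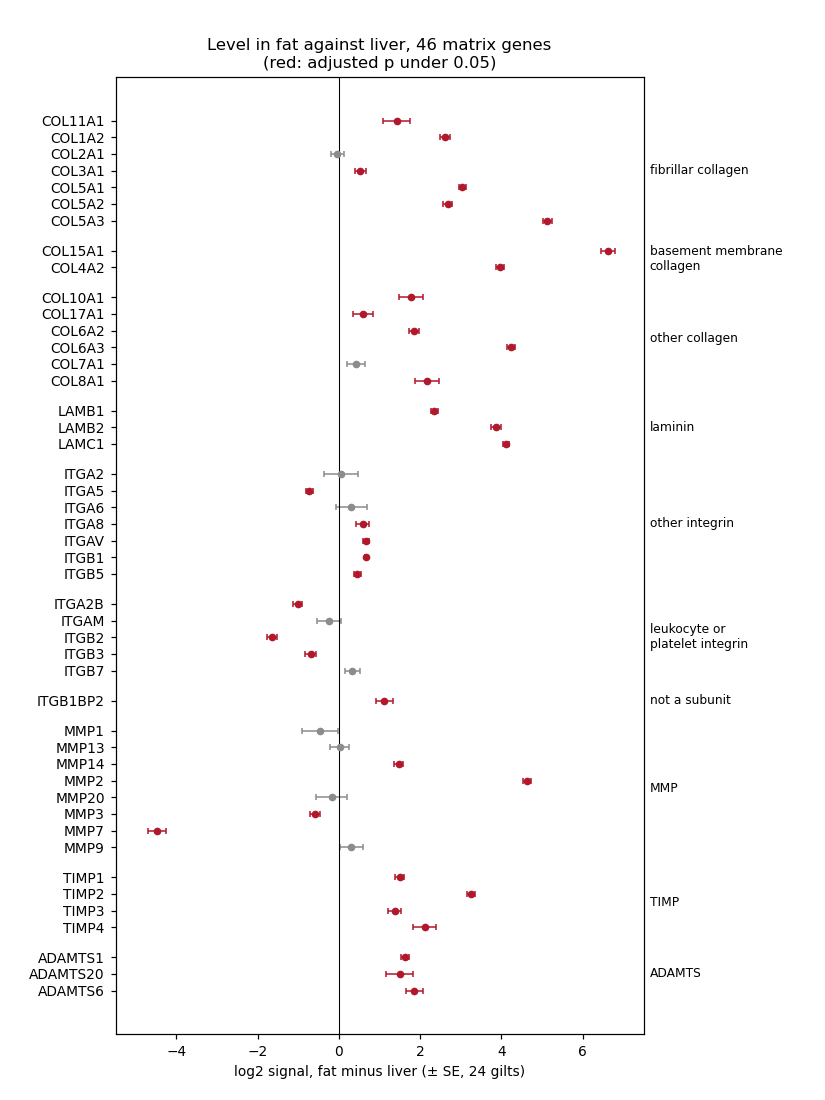
Log2 signal, fat minus liver, with its SE for all 46 genes by role, from the 24 fat and 24 liver arrays. Red marks an adjusted p under 0.05. Laminins, TIMPs, MMP2 and all collagens but COL2A1 lie right of 0, MMP7 lies far left at -4.48, and the integrins of leukocytes and platelets that passed lie left of 0.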

How the data were processed

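Expression was measured on Affymetrix porcine arrays. Signals were made with MAS5 in affy, per the submitters' processing notes, which give no versions. The deposited values are signal intensities on a linear scale, 1 per probe set and array, and a mean trimmed by 2% at each end came to between 500.1 and 500.2 for each of the 48 arrays. Log2 was taken with nothing added and no filter on dim signal. Of 24123 probe sets 124 controls were left out, and 2 whose annotation joins ITGB1BP1 to another symbol were tested but not counted as members. The members and gene lists were chosen with earlier results of these data known.

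Each tissue had its own model of 4 groups plus a block for the 6 replicate numbers, because the series is described as a randomized block design; it was fitted by lmFit and eBayes (trend) of limma 3.58.1, R 4.3.3. Between tissues, each gilt was a random block (correlation 0.0841). Tests were 2-sided, with Benjamini-Hochberg adjustment over 23999 probe sets. A gene was called at an adjusted p under 0.05. Errors are the SE of the log2 difference in the model. The model of each tissue was checked on simulated data for fasted minus fed. It called 54% of 1.5-fold and 82% of 2-fold changes in fat, and 36% and 62% in liver. The simulated noise was independent between probe sets, and only 50 of 23999 probe sets, drawn at random, changed at each fold. In the data 25.2% of probe sets were called in fat, so these shares hold for the simulated setting only. Genotype and the interaction were not simulated.

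Named genes are, per role and comparison, those that passed, in order of p, and up to 2 that did not pass with the largest difference, with COL5A1, COL3A1, TIMP1 and TIMP2 always given. COL6A3 and ITGB1 in fat, further genes that did not pass, and pathway genes beyond the lowest 3 p in a list were added after their values were seen. No arrays were identical. Alternatives changed the scaling, the floor, the probe sets, the blocks and the arrays used.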

Additional observations from a re-analysis of the deposited data

Results flagged for a closer look

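Among the 76 sets of 6 signals checked, each a gene in 1 group, 4 held an array whose distance to its nearest neighbour took up an unusually large share of the group's range. Chance gives this in about 1 in 20 such sets. COL3A1 was 78.2 in fasted N298 fat of replicate 1, where the group median was 291. ITGB5 was 813 in fed N298 fat of replicate 3 (median 1183), an array with hepatocyte transcripts. LAMB1 was 5328 in fasted N298 fat of replicate 1 (median 3575) and 2394 in fed D298 fat of replicate 3 (median 3180.3).

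For 10 genes the fasting effect differed between tissues by a direct test (limma, adjusted p under 0.05). The value in fat minus that in liver was -0.84 for COL1A2, -0.85 for COL5A1, -0.76 for COL5A2 and -1.45 for COL5A3. It was 0.50 for ITGB5, 0.51 for LAMB1, 1.06 for MMP14, 0.63 for MMP2, 1.69 for MMP7 and 0.73 for TIMP2. Without the 4 fat arrays with hepatocyte transcripts ITGB5 (0.42, adjusted p = 0.119) and MMP2 (0.53, adjusted p = 0.068) no longer passed.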

How the results depend on the processing

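The 13 genes called in fasted against fed fat became 11 to 14 over all alternatives, with 12 without the replicate block, and no called gene changed sign. Replicate numbers did not clearly pair the samples: the deviations of same-numbered arrays correlated at -0.07 to 0.15 in fat, where 7 of 24 arrays correlated best with their own number, and at -0.06 to 0.07 in liver, where 4 did. The calls of COL5A1, COL5A3, COL15A1, COL1A2, COL5A2, COL6A2, MMP14, MMP2, TIMP2, LAMB1 and ITGB5 in fat held in every fit that used the same probe sets, whereas those of ITGA8 and TIMP1 did not. COL2A1 (adjusted p = 0.0312 to 0.0485) was gained in 6 fits, ADAMTS20 in 2 (0.0287 and 0.0469), ITGB1 (0.20, adjusted p = 0.0039) with quantile normalization and LAMB2 (adjusted p = 0.0479) with array weights. Among fits added after the data were seen, fat gave 13 without the 4 arrays with hepatocyte transcripts (ITGA8 and TIMP1 lost, COL2A1 and TIMP4 gained), 13 with the muscle marker mean and 11 with the GAPDH ratio as a covariate. The 1 liver gene became 2 with 32 added before log2, with each array centred on its median, with a random replicate block, with the second-brightest probe set and without the arrays of high control ratio, 3 with array weights and with quantile normalization, 4 with only the brighter probe sets, and 1 to 3 without each replicate. The genes that joined MMP7 were COL6A3, COL5A1 and ITGAV; the cause was not tested. Genes that differed between tissues in their fasting effect numbered 7 to 12 beside 10, with 7 when arrays were centred on the median and 10 with a replicate block. Centring on the median changed the share of calls over all probe sets that were higher to 43.2% in fat, against 60.1% as deposited, and to 68.1% in liver, against 50.8%. Of the 46 genes it gave 5 higher and 8 lower in fat and 1 each in liver. The 36 genes that differed in level became 25 to 36. Genotype and interaction gave 0 in every fit.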
